A study of Homo sapiens with 9 samples.

Results

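This section describes the 200 brightest of the numbered zinc finger genes (symbols of the form ZNF plus a number) in HL-60 clone 15, a human cell line from a promyelocytic leukaemia, measured on Affymetrix arrays. By symbol, 435 named genes qualified once ZNF141 had been set aside, and the 200 with the highest mean log2 signal over the 9 arrays were kept, out of 14778 named genes measured. Among the genes that qualified by symbol, the members were thus chosen by their mean signal, a measure that uses no difference between groups. The choice was made with earlier results of these data known. The levels below are therefore a description, and the comparisons between groups are tests on members not picked blind to these data. All cells carried a lentiviral construct that 4-hydroxytamoxifen (4-OHT) switches on. One group of 3 arrays is labelled RhoH with 100 nM 4-OHT (induced RhoH), one RhoH with no 4-OHT (uninduced RhoH), and one GFP with 100 nM 4-OHT, in which the construct codes for a fluorescent control protein. RhoH is a small GTP-binding protein of blood cells. Each group is described as 3 biological replicates. The p-values rest on 1 spread per gene, pooled over the replicates of all 3 groups. The GFP arrays, which varied least, thus also enter the comparison of induced with uninduced RhoH. Whether the transduced cells are clones or pools is not given in the sources used here. No GFP group without the drug was analysed here, so the drug, the construct and the difference between the 2 transduced populations cannot be told apart where the groups differ in more than 1 of them.

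Genes of this family encode proteins with C2H2 zinc fingers, small folds that each hold a zinc ion and read a few bases of DNA. Many carry a KRAB domain at the start of the protein. KRAB recruits the co-repressor TRIM28 (KAP1), which brings in the histone methyltransferase SETDB1, heterochromatin proteins and the NuRD complex, and silences retroelements and some genes. Others lack KRAB and act as activators, chromatin factors, or in RNA processing, ribosome assembly and mitosis. The family grew by repeated local duplication, above all on chromosome 19, so that related members lie side by side and resemble one another in sequence. The probe sequences were not used here, and how far a probe set also reads a related gene was not tested.

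RHOH, the gene of the construct, did not follow the labels in every comparison. Its log2 signal was 5.603, 5.73 and 5.45 on the arrays labelled induced RhoH, 5.23, 5.25 and 5.15 on those labelled uninduced RhoH, and 5.90, 5.94 and 5.94 on those labelled GFP. By limma it was higher in induced than in uninduced RhoH (log2 fold change 0.38, adjusted p = 0.0451). It was lower in uninduced RhoH than in GFP cells (-0.72, adjusted p = 0.00042), and induced RhoH against GFP was at -0.33 (adjusted p = 0.0717). The probe set was dim, with a mean of 5.58 against a median of 6.42 over all named genes. Whether it reads the transcript of the construct was not tested. The arrays labelled GFP were thus the highest, and every direction given here is that of the arrays as labelled. Granulocyte markers fitted a promyelocytic line: the mean of MPO, PRTN3, AZU1, CTSG and LYZ was between 12.0 and 12.2 on the induced RhoH arrays, 12.3 to 12.4 on the uninduced RhoH arrays and 10.9 to 11.0 on the GFP arrays. Of these 5, 4 were higher in each RhoH group than in GFP cells by limma. The mean of the eosinophil genes EPX and CLC was 8.49 to 9.34 on the induced RhoH arrays, 8.86 to 9.63 on the uninduced RhoH arrays and 6.99 to 7.07 on the GFP arrays, and that of the monocyte genes CD14, CD163 and CSF1R 5.34 to 5.64, 5.30 to 5.62 and 5.83 to 6.05 in the same order. Of the monocyte genes, CD14 alone was lower in induced RhoH than in GFP cells (log2 fold change -1.35, adjusted p = 0.00726), with CSF1R at 0.02 and CD163 at 0.08. CD2, the only T cell marker measured, stayed between 5.52 and 5.93 on all arrays. The part of these lineage genes in the zinc finger results was not tested, and fewer cells of a type cannot be told apart from less RNA per cell.

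The promoter sequences of 4 members follow, because 2 patterns described below rest on them: ZNF503 and ZNF217 rose with 4-OHT in RhoH cells in every alternative run, and ZNF655 and ZNF800 were lower in both RhoH groups than in GFP cells. ZNF117 and ZNF704 had larger differences between uninduced RhoH and GFP, and their promoters are not shown. Each line gives the 250 bases before the gene's start in RefSeq on GRCh38.p14, 5′ to 3′ on the gene's strand. Capitals mark matches on either strand to GGGCGG, the core of SP1 sites, and in ZNF800 also 1 match to the palindromic motif of the factor NRF1. No 2 matches overlap.
ZNF503 (chr10:75401917-75402166, minus strand): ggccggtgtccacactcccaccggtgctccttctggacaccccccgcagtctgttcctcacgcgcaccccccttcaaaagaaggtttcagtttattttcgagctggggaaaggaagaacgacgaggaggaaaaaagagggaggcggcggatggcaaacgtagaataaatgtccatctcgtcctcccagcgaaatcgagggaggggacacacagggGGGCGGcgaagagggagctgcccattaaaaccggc
ZNF217 (chr20:53593840-53594089, minus strand): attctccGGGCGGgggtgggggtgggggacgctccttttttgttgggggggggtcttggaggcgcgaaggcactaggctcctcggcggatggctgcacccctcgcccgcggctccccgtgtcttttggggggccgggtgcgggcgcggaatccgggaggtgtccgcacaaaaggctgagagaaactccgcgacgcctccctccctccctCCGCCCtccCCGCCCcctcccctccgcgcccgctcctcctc
ZNF655 (chr7:99558392-99558641, plus strand): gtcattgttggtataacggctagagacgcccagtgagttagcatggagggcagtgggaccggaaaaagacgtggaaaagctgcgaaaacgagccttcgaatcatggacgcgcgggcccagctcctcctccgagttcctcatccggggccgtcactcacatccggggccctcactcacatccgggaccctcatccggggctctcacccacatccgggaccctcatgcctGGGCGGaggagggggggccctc
ZNF800 (chr7:127392709-127392958, minus strand): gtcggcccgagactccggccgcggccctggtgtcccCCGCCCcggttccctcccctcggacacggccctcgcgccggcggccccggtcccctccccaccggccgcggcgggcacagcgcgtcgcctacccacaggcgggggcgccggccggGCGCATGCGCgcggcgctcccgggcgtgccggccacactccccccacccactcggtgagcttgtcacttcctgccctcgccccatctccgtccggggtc

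All 4 windows were rich in G and C, from 58.4% in ZNF503 to 80.4% in ZNF800, and held 17 to 37 CpG pairs. ZNF217 had 3 SP1 cores and the others 1 each. None of the 4 held the CCAAT box, the core CCGGAAG of ETS factors, or the TATA box as TATAAA. None held the palindrome of the oestrogen receptor, a receptor that 4-OHT binds. This says only that these letters are absent from these windows.

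The RefSeq table held a promoter for 179 of the 200 members, of which 50.3% lie on chromosome 19 against 5.53% of all promoters. The member promoters had a median GC content of 61.6% against 58.0% for all 27305 promoters in it, and a median of 19 CpG pairs against 11. On either strand, GGGCGG occurred in 62.6% of member promoters and 42.3% of all, and CCAAT in 44.7% and 33.0%. The ETS core CCGGAAG was present in 35.8% of member promoters and 8.82% of all, and the NRF1 motif in 12.3% and 5.53%. TATAAA was in 2.79% of member promoters and 11.1% of all. The oestrogen receptor palindrome occurred in 1 member promoter (0.559%) and in 12 of all 27305 (0.0439%). These are counts of letters, not of bound sites. The promoters compared include those of genes not measured here, and the members were chosen for high signal. Whether equally bright genes of other families share these differences was not tested.

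The members were bright by construction. Their mean log2 signal over the 9 arrays ran from 7.04 to 11.2 with a median of 7.90, against 6.42 over all named genes and 6.05 over the 235 ZNF genes not kept. Just inside the limit were ZNF416 (7.06), ZNF530 (7.04) and ZNF671 (7.04), and just outside it ZNF782 (7.03), ZNF319 (7.03) and ZNF22 (7.01).

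The brightest members were, in order, ZNF121 (11.2), ZNF207 (10.7), ZNF451 (10.5), ZNF841 (10.4) and ZNF644 (10.0). ZNF207 encodes BuGZ, which loads the checkpoint protein BUB3 in mitosis, ZNF451 a SUMO ligase, and ZNF644 a partner of the histone methyltransferases G9a and GLP. None of the 5 passed the test in any comparison. ZNF207 read 10.69, 10.76 and 10.57 on the induced RhoH arrays, 10.60, 10.69 and 10.72 on the uninduced RhoH arrays, and 10.72, 10.61 and 10.69 on the GFP arrays. Its 3 groups overlapped throughout, and its log2 differences were 0.00041 (SE 0.08) between induced and uninduced RhoH and -0.0035 (SE 0.08) between induced RhoH and GFP.

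Most of the family moved little, as did most named genes. The members' median absolute log2 fold change was 0.105 between induced and uninduced RhoH, against 0.104 over all named genes. It was 0.112 against 0.122 between induced RhoH and GFP, and 0.148 against 0.156 between uninduced RhoH and GFP. Over the 5587 other named genes within the members' range of brightness it was 0.145, 0.141 and 0.229 in that order. The range of the 3 group means had a median of 0.207 log2 units over the 200 members, reached 0.5 in 26 of them and 1 in 3 of them. A member was called where limma gave an adjusted p under 0.05 (Benjamini-Hochberg over all 14778 named genes). That held for 24 members in at least 1 comparison and for 176 in none. The 3 comparisons share arrays pair by pair, so a gene's values in them are not independent.

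**Figure D1:**
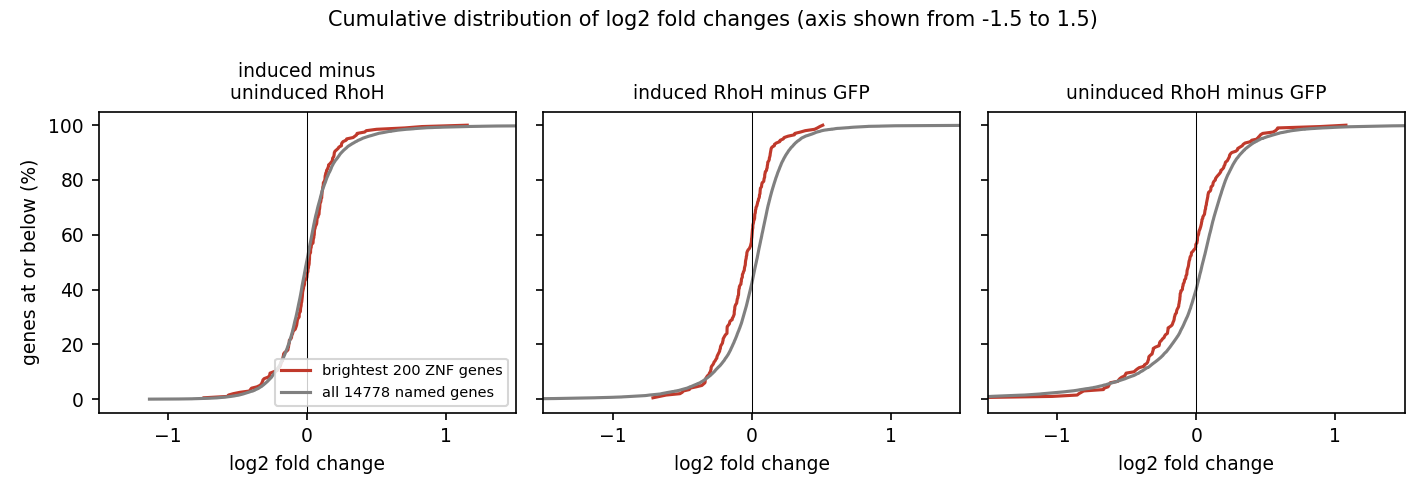
Cumulative share of genes (y axis, percent) at or below each log2 fold change (x axis, shown from -1.5 to 1.5) for the 200 ZNF genes and all 14778 named genes in the 3 comparisons. The ZNF curve lies close to that of all genes between induced and uninduced RhoH and a little to its left in both comparisons with GFP, where its medians are -0.04 and -0.05 against 0.03 and 0.05.

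With 4-OHT in RhoH cells, 4 members changed. ZNF117, ZNF503 and ZNF217 rose and ZNF704 fell. These 4 are 2% of members, against 3.78% of all named genes called. By direction, 1.5% of members were higher and 0.5% lower, against backgrounds of 3.02% and 0.751%, so the share of members called was not above that of genes at large. Of the 5587 other named genes within the members' range of brightness, 7.8% were called. The median log2 fold change was 0.015 over the members and -0.0043 over all named genes. In 14 members (7%) no induced array lay within the range of the uninduced ones, against 14.5% of all named genes. At an unadjusted p under 0.05, 8 members were higher and 11 lower, against 1268 and 871 of all 14778 named genes.

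ZNF503 encodes NOLZ1, a developmental transcriptional repressor of the NET family. Its log2 signal was 7.56, 7.64 and 7.97 on the induced RhoH arrays and 6.90, 6.94 and 6.86 on the uninduced RhoH arrays. Every induced array lay above every uninduced one, with the uninduced arrays close together. It rose 1.77-fold (log2 fold change 0.83, SE 0.11, limma adjusted p = 0.00290). On the GFP arrays it was 7.80, 7.71 and 7.66, a level that the induced arrays bracketed, and the difference between induced RhoH and GFP was -0.0015 (SE 0.11, adjusted p = 0.997). In uninduced RhoH cells it was lower than in GFP cells by a log2 fold change of -0.83 (adjusted p = 0.000649).

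ZNF217 encodes a co-repressor-binding protein that is amplified in breast cancers. It read 8.87, 8.83 and 8.83 on the induced RhoH arrays, against 7.92, 8.25 and 8.26 on the uninduced RhoH arrays. The groups were apart and the induced arrays almost identical. It rose 1.63-fold (log2 fold change 0.70, SE 0.10, adjusted p = 0.00480). The GFP arrays were higher again, at 9.17, 9.24 and 9.13. Its log2 fold change against GFP was -0.33 (SE 0.10, adjusted p = 0.120) for induced RhoH and -1.04 (SE 0.10, adjusted p = 9.74e-05) for uninduced RhoH. The calls of ZNF503 and ZNF217 with 4-OHT held in all 19 alternatives run.

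ZNF117 had the widest range of group means of all members, 1.67. In RefSeq it overlaps ERV3-1-ZNF117, a read-through gene with the endogenous retroviral gene next to it, and the probe set may read either. It was 8.78, 8.52 and 7.84 on the induced RhoH arrays, 6.74, 7.63 and 7.30 on the uninduced RhoH arrays, and 8.99, 8.87 and 8.82 on the GFP arrays. Both RhoH groups were widely spread, with SDs of 0.49 and 0.45 against 0.09 in GFP cells, yet they did not overlap. It was 2.22-fold higher with 4-OHT (log2 fold change 1.15, SE 0.26, adjusted p = 0.0361). That call did not survive the removal of any 1 of 7 arrays (adjusted p = 0.0691 to 0.104), and held without induced RhoH replicate 3 (0.0121) or uninduced RhoH replicate 2 (0.0310). Without both RhoH replicate 1 arrays the log2 fold change was 0.71 (adjusted p = 0.152). With only the 6 arrays compared, and so no GFP array in the fit, the call was lost as well (adjusted p = 0.151). The 3 members whose values followed it most closely over the 9 arrays were ZNF217 (Pearson r = 0.947), ZNF44 (0.904) and ZNF845 (0.899).

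ZNF704 went the other way. It was 6.86, 7.14 and 7.32 on the induced RhoH arrays, against 7.61, 7.78 and 7.63 on the uninduced RhoH arrays, with no overlap. It fell by 0.57 on the log2 scale (SE 0.13, adjusted p = 0.0401). The call held without induced RhoH replicate 3 (0.0227) and was lost when any 1 of the other 8 arrays was left out (adjusted p = 0.0563 to 0.140). It was also lost with only the 6 arrays compared, a fit without the GFP arrays (adjusted p = 0.129). The GFP arrays were the lowest, at 6.47, 6.77 and 6.54. Uninduced RhoH cells therefore stood above GFP cells by 1.08 (SE 0.13, adjusted p = 0.000311), and induced RhoH cells by 0.51 (adjusted p = 0.0563). ZNF566 came near the threshold: it was 6.58, 7.22 and 6.73 on the induced arrays and 7.25, 7.84 and 7.67 on the uninduced arrays (log2 fold change -0.74, adjusted p = 0.0560).

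**Figure D2:**
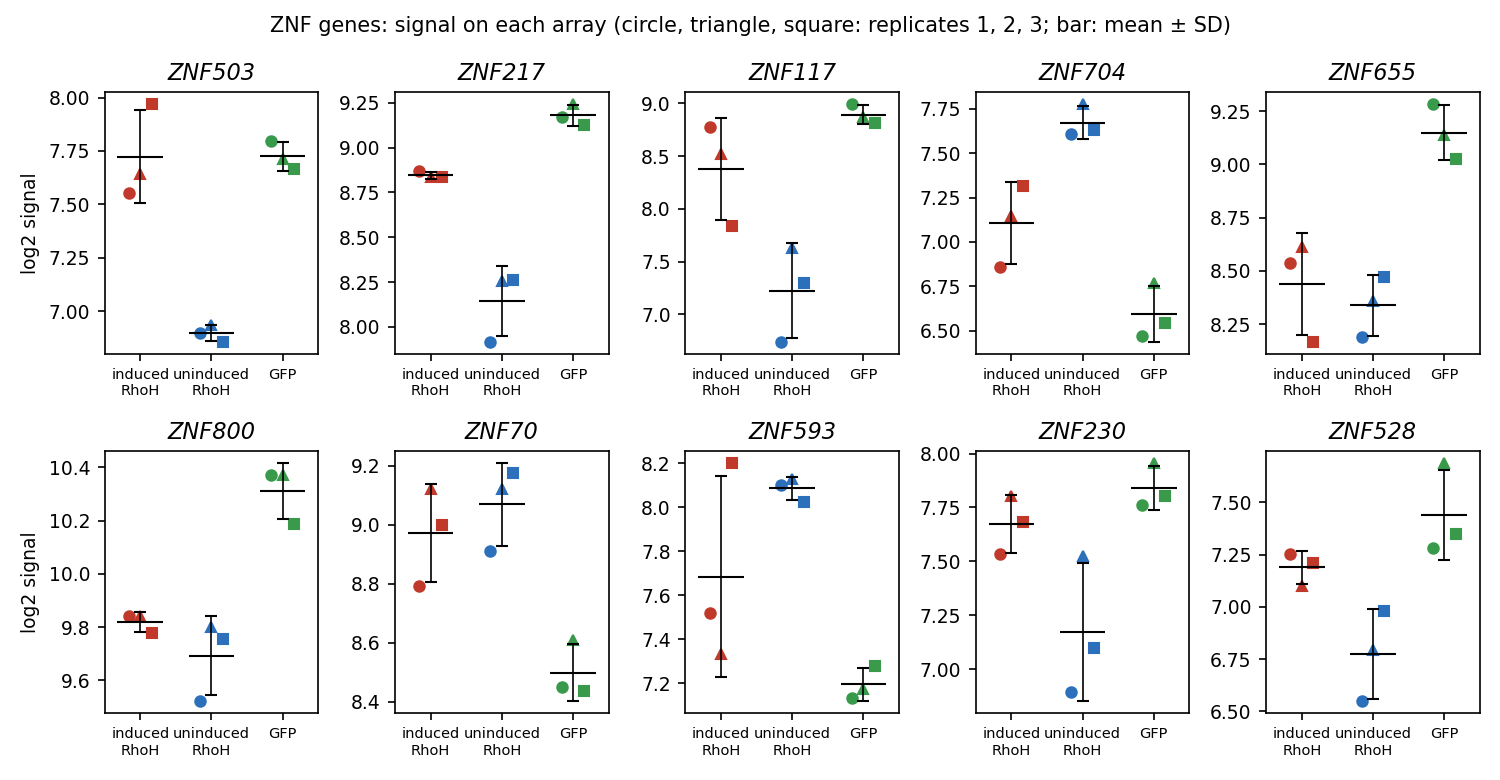
Log2 signal (y axis) of 10 ZNF genes on each array, by group (x axis: induced RhoH, uninduced RhoH, GFP), with symbols for replicates 1 to 3 and bars for the mean and SD (n = 3). ZNF503, ZNF217 and ZNF117 are lowest in uninduced RhoH cells, ZNF704 is highest there, and ZNF655 and ZNF800 are highest in GFP cells.

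Between induced RhoH and GFP cells, both with 4-OHT, 3 members differed. ZNF70 was higher in induced RhoH cells, and ZNF655 and ZNF800 were lower. These 3 are 1.5% of members, against 4.49% of all named genes called. By direction, 0.5% of members were higher and 1% lower, against backgrounds of 1.74% and 2.75%. The median log2 fold change was -0.04 over the members and 0.03 over all named genes, and 58.5% of members were below 0 against 42.1% of all. The 5587 other named genes within the members' range of brightness had a median of -0.03 with 56.4% below 0, and 7.77% of them were called. An unadjusted p under 0.05 was reached by 7 members that were higher and 17 that were lower. Of all 14778 named genes, 1157 were higher and 1262 lower by that measure. Induced RhoH and GFP arrays were apart in 39 members (19.5%), against 22.5% of all named genes.

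ZNF655 encodes VIK, a protein known to bind the exchange factor VAV1. Its log2 signal was 8.54, 8.61 and 8.17 on the induced RhoH arrays and 9.28, 9.14 and 9.02 on the GFP arrays. All GFP arrays lay above all RhoH arrays. It was 1.64-fold lower in induced RhoH cells (log2 fold change -0.71, SE 0.13, adjusted p = 0.0151), a call lost without GFP replicate 1 or 2 (adjusted p = 0.0717 to 0.0792). The uninduced RhoH arrays, at 8.19, 8.36 and 8.47, overlapped the induced ones, with a log2 difference of 0.10 (SE 0.13) between induced and uninduced.

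ZNF800 was 9.84, 9.84 and 9.78 on the induced RhoH arrays and 10.37, 10.37 and 10.19 on the GFP arrays. It was 1.41-fold lower in induced RhoH cells (log2 fold change -0.49, SE 0.10, adjusted p = 0.0204), and the call was lost without induced RhoH replicate 3 or GFP replicate 1 or 2 (0.0516 to 0.105). On the uninduced RhoH arrays it was 9.52, 9.80 and 9.76. The levels of ZNF655 and ZNF800 ran alike over the 9 arrays (Pearson r = 0.956), which share their groups.

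ZNF70 read 8.79, 9.12 and 8.998 on the induced RhoH arrays, against 8.45, 8.61 and 8.44 on the GFP arrays. It was 1.39-fold higher (log2 fold change 0.47, SE 0.11, adjusted p = 0.0445). The call held without replicate 1 of induced or uninduced RhoH and was lost when any 1 of the other 7 arrays was left out (adjusted p = 0.0643 to 0.179). The uninduced RhoH arrays were as high, at 8.91, 9.12 and 9.18, and ZNF70 kept its call between uninduced RhoH and GFP in all 19 alternatives (log2 fold change 0.57, adjusted p = 0.00641).

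ZNF768, which is known as a target of RAS signalling, was close to the threshold in this comparison, with 7.95, 8.25 and 8.55 on the induced RhoH arrays and 8.83, 8.86 and 8.90 on the GFP arrays (log2 fold change -0.62, adjusted p = 0.0594). ZNF107 had the widest spread of any member within a group: it was 9.08, 9.05 and 7.59 on the induced RhoH arrays, an SD of 0.85, and 9.21, 9.30 and 9.19 on the GFP arrays. Its fold change of -0.66 (SE 0.34, adjusted p = 0.382) comes with a gap of over 1 log2 unit between induced RhoH replicate 3 and the other induced arrays.

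The uninduced RhoH and GFP cells, which differ in both construct and drug, were furthest apart. Of the 200 members, 24 passed, 7 higher and 17 lower in uninduced RhoH cells. They are 12% of members, against 15.3% of all named genes called. By direction the shares were 3.5% and 8.5%, against backgrounds of 6.01% and 9.27%. Among the 5587 other genes as bright as the members, 29% were called, 11.6% higher and 17.4% lower, and 60% had their arrays apart. The median log2 fold change was -0.05 over the members, -0.02 over those 5587 genes and 0.05 over all named genes, and that of the members was 0.02 after a further quantile normalization. Of the 200 members, 3 were called with a change of at least 2-fold (ZNF117, ZNF217 and ZNF704). By that measure it was 464 of all 14778 named genes and 322 of those 5587 genes. Uninduced RhoH and GFP arrays were apart in 73 members (36.5%), against 37.3% of all named genes. At an unadjusted p under 0.05, 15 members were higher and 33 lower, against 1813 and 1999 of all 14778 named genes.

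**Figure D3:**
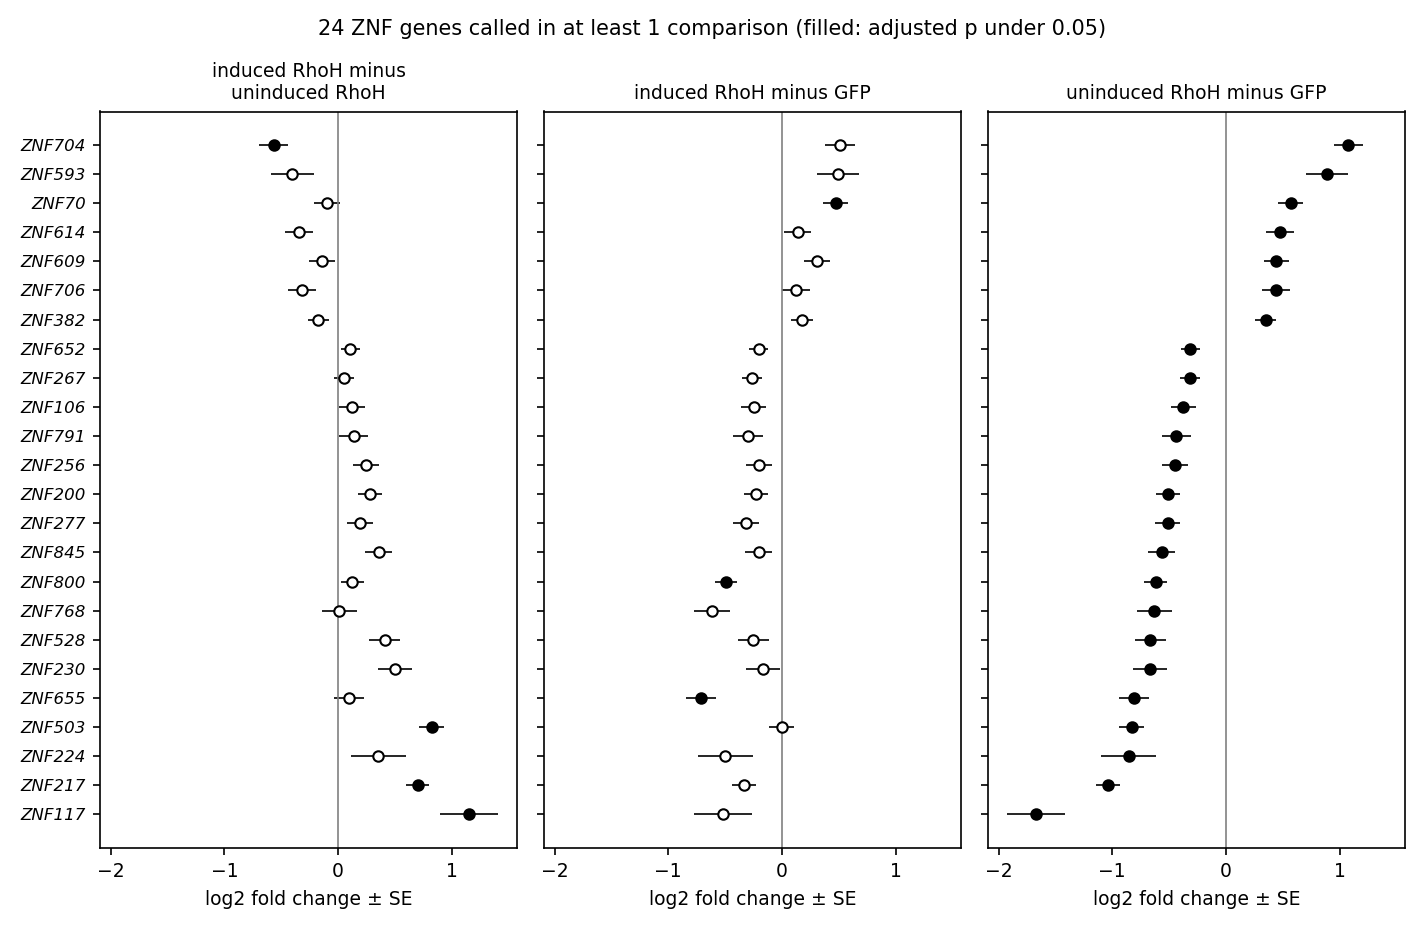
Log2 fold change with its SE (x axis) of the 24 ZNF genes called in at least 1 comparison, 1 gene per line, in each of the 3 comparisons; filled points have an adjusted p under 0.05. Filled points number 4 between induced and uninduced RhoH, 3 between induced RhoH and GFP and 24 between uninduced RhoH and GFP.

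ZNF117 led the lower genes. It was 3.18-fold lower in uninduced RhoH than in GFP cells (log2 fold change -1.67, SE 0.26, adjusted p = 0.00149), and with ZNF217, ZNF503, ZNF655 and ZNF528 it kept its call in all 19 alternatives. ZNF528 was 6.55, 6.79 and 6.98 on the uninduced RhoH arrays, against 7.28, 7.69 and 7.35 on the GFP arrays. These groups did not overlap, and the log2 fold change was -0.66 (SE 0.14, adjusted p = 0.00803). ZNF655 was lower by a log2 fold change of -0.81 (adjusted p = 0.00227) and ZNF800 by -0.62 (adjusted p = 0.00185).

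ZNF224 and ZNF230 belong to the same stretch of neighbouring zinc finger genes. ZNF224 encodes a KRAB repressor known to act with the Wilms tumour protein WT1. It was 6.74, 7.71 and 7.76 on the uninduced RhoH arrays, against 8.07, 8.51 and 8.20 on the GFP arrays, so that replicate 1 stood about 1 log2 unit below the other uninduced arrays. Its log2 fold change of -0.86 (SE 0.24, adjusted p = 0.0389) was -0.52 without uninduced RhoH replicate 1, and the call was lost when any 1 GFP array or induced RhoH replicate 2 or 3 was left out (adjusted p = 0.0512 to 0.157). A further probe set of ZNF224 gave -0.48. ZNF230 was 6.90, 7.52 and 7.10 on the uninduced RhoH arrays and 7.76, 7.96 and 7.80 on the GFP arrays (log2 fold change -0.67, SE 0.15, adjusted p = 0.0133), with the call lost without uninduced RhoH replicate 3 or GFP replicate 2 (0.0526 to 0.0657).

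Genes next to ZNF224 did not all move with it. In RefSeq order ZNF223, ZNF284 and ZNF224 are adjacent. ZNF223 was at -0.63 (adjusted p = 0.0660) and ZNF284 at 0.21 (adjusted p = 0.605) between uninduced RhoH and GFP. ZNF225 on the other side, which is not among the 200, was at -0.75 (adjusted p = 0.0333). ZNF614, which was higher in uninduced RhoH cells, lies between ZNF615 (-0.27), which is not among the 200, and ZNF432 (-0.17). ZNF841 (-0.14) follows ZNF432, and none of these neighbours passed.

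ZNF768 was the last of the 8 lowest, at 7.97, 8.32 and 8.42 on the uninduced RhoH arrays and 8.83, 8.86 and 8.90 on the GFP arrays (log2 fold change -0.63, adjusted p = 0.0227). Its call was lost without uninduced RhoH replicate 1 or any 1 GFP array (0.0654 to 0.0828). The other 9 lower members were ZNF800, ZNF845, ZNF277, ZNF200, ZNF256, ZNF791, ZNF106, ZNF267 and ZNF652, between -0.62 and -0.31. ZNF652 encodes a DNA-binding partner of the co-repressor CBFA2T3.

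Of the 7 higher members, ZNF704 was 2.11-fold higher in uninduced RhoH than in GFP cells. ZNF593, whose yeast relative Bud20 acts in export of the large ribosomal subunit, was 8.10, 8.13 and 8.03 on the uninduced RhoH arrays and 7.13, 7.17 and 7.28 on the GFP arrays. The groups were clearly apart (log2 fold change 0.89, SE 0.19, adjusted p = 0.00879). On the induced RhoH arrays it was 7.52, 7.33 and 8.20, with replicate 3 at the uninduced level and the others nearer to GFP. ZNF704, ZNF593 and ZNF70 kept their calls in all 19 alternatives.

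The remaining 4 higher members changed less. ZNF614 was at 0.48 (adjusted p = 0.0241), ZNF609 at 0.44 (0.0244), ZNF706 at 0.44 (0.0358), and the KRAB repressor gene ZNF382 at 0.35 (0.0293). ZNF609 is known from mice as a partner of the cohesin loader NIPBL. All 4 lost their calls when any 1 GFP array was left out and without uninduced RhoH replicate 3, and the first 3 also without uninduced RhoH replicate 2 (adjusted p = 0.0677 to 0.138). In each comparison, every member called had its groups of arrays apart. The same held for all or nearly all called genes among the 14778 named genes, so it is not particular to the members.

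Of 33 members on a list of zinc finger genes with well-studied roles, 2 rose (ZNF503 and ZNF217) and none fell between induced and uninduced RhoH, none passed between induced RhoH and GFP, and 2 were higher (ZNF609 and ZNF706) and 3 lower (ZNF217, ZNF503 and ZNF652) between uninduced RhoH and GFP. These are 6.06%, 0% and 15.2% of the list, against 3.78%, 4.49% and 15.3% of all named genes called. Of the 5587 other named genes within the members' range of brightness, 7.8%, 7.77% and 29% were called. Where none passed limma, an unadjusted p under 0.05 was reached by 1 higher and 3 lower. Of all 14778 named genes, 1157 were higher and 1262 lower by that measure there. The medians were 0.02, -0.03 and -0.02 on the log2 scale in that order. ZNF143, an activator of small nuclear RNA genes, was at -0.31 (adjusted p = 0.0630) between uninduced RhoH and GFP. ZNF384, a gene rearranged in some acute leukaemias, was at -0.17 (0.175) by its brighter probe set and -0.13 by its dimmer one. ZNF274, which brings SETDB1 to its targets, was at -0.21 (0.433).

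Of 22 measured partners of KRAB repression, 4 passed between uninduced RhoH and GFP (18.2%, against 15.3% of all named genes) and none in the other comparisons. CHD3 (-0.83, adjusted p = 0.00255) and RBBP7 (-0.68, adjusted p = 0.00175), both NuRD subunits, and PPHLN1 of the HUSH silencing complex (-0.40, adjusted p = 0.0137) were lower in uninduced RhoH cells, and UHRF1, which maintains DNA methylation, was higher (0.54, adjusted p = 0.0430). The list's median was -0.16, against 0.05 over all named genes. The partners are bright genes too, and the 5587 other named genes within the members' range of brightness had a median of -0.02 with 29% called. TRIM28 itself was bright, at 11.03, 11.24 and 11.57 on the induced RhoH arrays, 11.41, 11.40 and 11.40 on the uninduced RhoH arrays and 11.09, 11.05 and 11.08 on the GFP arrays, and its differences did not pass (0.33, adjusted p = 0.115, between uninduced RhoH and GFP). Neither of the comparisons of induced RhoH called a partner by limma. Without adjustment, a p under 0.05 was reached by 3 higher and 1 lower against uninduced RhoH and by 0 higher and 2 lower against GFP. Of all 14778 named genes, 1268 were higher and 871 lower against uninduced RhoH, and 1157 and 1262 against GFP.

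By position, 99 members (49.5%) lie on chromosome 19, against 7.84% of all named protein-coding genes. They supplied 0 of the 4 calls between induced and uninduced RhoH, 0 of the 3 between induced RhoH and GFP, and 8 of the 24 between uninduced RhoH and GFP (2 higher and 6 lower). The 101 members elsewhere supplied 5 higher and 11 lower genes in that comparison. Of all members, 2%, 1.5% and 12% were called in the 3 comparisons, against 3.78%, 4.49% and 15.3% of all named genes. Whether members on chromosome 19 differ from the others was not tested. In RefSeq order of protein-coding genes, 77 members fell into 31 runs of directly adjacent members, the longest of 4 genes. In those of 4 (ZNF329, ZNF274, ZNF544 and ZNF8, and ZNF805, ZNF460, ZNF543 and ZNF304) no gene passed in any comparison.

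Of the 200 members, 8 had more than 1 probe set, and the brighter one was used. The dimmer probe set differed in sign for some: ZNF770 was at 0.17 between uninduced RhoH and GFP with the probe set used and -0.66 with the other, whose mean signal was 4.63.

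Replicate 1 of both RhoH groups read low for the family. The median deviation of the members from their own means over the 9 arrays was -0.149 on induced RhoH replicate 1 and -0.193 on uninduced RhoH replicate 1, and between 0.0152 and 0.0804 on the other 7 arrays. Of the 200 members, 36 and 31 lay above their own mean on those 2 arrays, and 113 to 157 on each of the others. In induced RhoH cells 140 members (70.0%) were lowest on replicate 1, and in uninduced RhoH cells 175 (87.5%), against 42.6% and 49.3% of all named genes and 83 members (41.5%) in GFP cells. In both RhoH groups at once it was 122 members (61.0%), and 30.2% of all named genes. Among the 5587 other named genes within the members' range of brightness the shares were 63.0% and 77.9%, so the shift was shared by bright genes at large. Its cause was not tested.

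**Figure D4:**
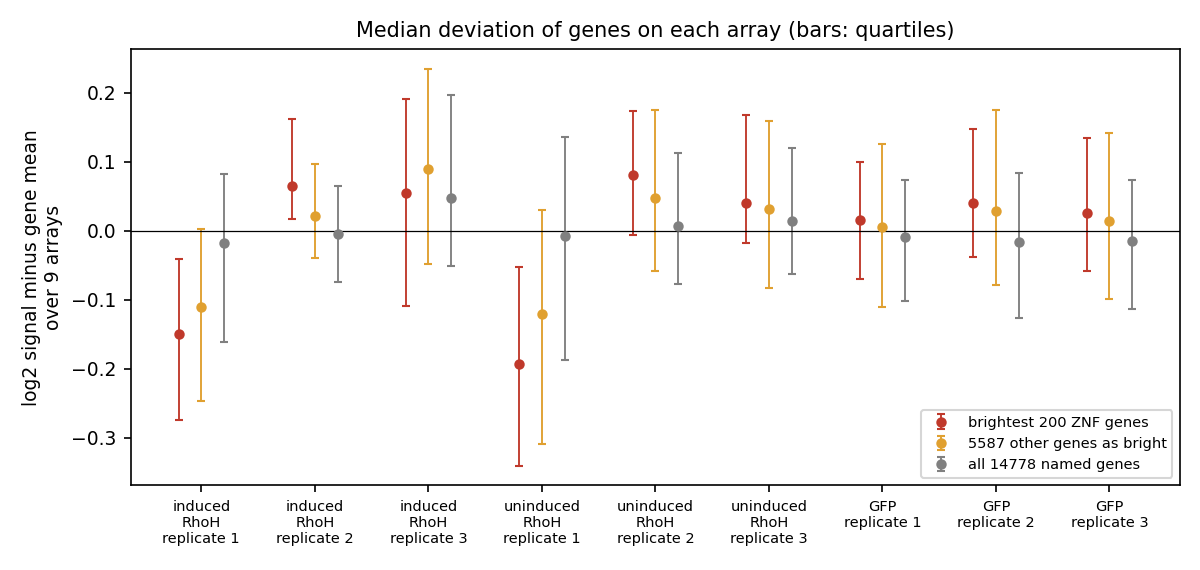
Median deviation of genes from their own mean over the 9 arrays (y axis, log2 units; bars are quartiles over genes) on each array (x axis) for the 200 ZNF genes, the 5587 other named genes as bright, and all 14778 named genes. On both RhoH replicate 1 arrays the ZNF genes are at -0.149 and -0.193, the other bright genes are below 0 as well, and all genes are near 0.

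The spread within groups was larger in both RhoH groups than in GFP cells, and not only through replicate 1. The median SD over 3 arrays was 0.200 for the members in induced RhoH, 0.173 in uninduced RhoH and 0.0586 in GFP cells. It was 0.161, 0.132 and 0.0724 over all named genes, and 0.179, 0.128 and 0.0516 over the other genes as bright. The SD of the members' deviations from their group means was largest on induced RhoH replicate 3, at 0.235. It was 0.173 on induced and 0.149 on uninduced RhoH replicate 1. The array weights of these 3 arrays were 0.275, 0.334 and 0.267, against 1.25 to 2.61 for the others. Without both RhoH replicate 1 arrays, 2 members rose and 1 fell between induced and uninduced RhoH, against 3 and 1 with all arrays. The member that then fell was not ZNF704, whose adjusted p was 0.0962. Between induced RhoH and GFP, 5 members were then higher (2.5%, against 3.46% of all named genes) and 4 lower (2%, against 3.23%). Between uninduced RhoH and GFP, 22 were higher (11%, against 8.78% of all named genes) and 17 lower (8.5%, against 8.74%). These shares are near those of all genes, and the share of genes as bright was not computed for this setting. With all arrays, 3.5% of members were higher, against 6.01% of all named genes and 11.6% of the other genes as bright. The number of higher members in the comparison of uninduced RhoH with GFP thus moved by over 1.5 times with these 2 arrays, and the number of lower ones stayed at 17.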

How the data were processed

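Total RNA of 9 samples was labelled with biotin and hybridised to Affymetrix arrays, per the labels. The authors deposited a table of log2 signals for 43550 probe sets. The submitters' processing notes name Affymetrix Power Tools, RMA and limma without versions. RMA subtracts background, normalizes by quantiles and summarises probes, which compresses low signals. No 2 arrays were identical, and 0 columns were left unused. The number of arrays limits the precision.

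The platform annotation gave 1 symbol to 15659 probe sets and none to 27891. All 15659 matched RefSeq GRCh38.p14 by Entrez identifier. The brightest probe set per gene left 14778 genes. limma 3.58.1 in R 4.3.3 fitted 3 group means over 9 arrays (6 residual and 3.86 prior degrees of freedom), and was tested on simulated data. The members, the gene lists and the alternative without both RhoH replicate 1 arrays were chosen with earlier results of these data known. Genes named are, per comparison, the 8 highest and 8 lowest called members whose arrays do not overlap, the 5 brightest, the 3 on each side of rank 200, called genes of the lists, and RHOH. Other genes were named after their values were seen. A grouping by KRAB domain or number of fingers was not analysed here. Alternatives were a replicate block, array weights, 2 rescalings, only the 6 arrays compared, all probe sets, the dimmest 25% left out, an intensity trend, averaged probe sets, and arrays left out.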

Additional observations from a re-analysis of the deposited data

How the results depend on the processing

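Brackets after a count give the share of members against that of all named genes. Between induced and uninduced RhoH, the 3 members called higher became 2 to 4 under the alternatives (1% to 2% against 1.23% to 4.7%). The 1 called lower became 2 with the replicate number as a block (1% against 1.22%) and 4 with array weights (2% against 2.63%). It became 6 after a further quantile normalization (3% against 2.47%) and 2 with arrays centred on the median (1% against 1.33%). Without the dimmest genes it was 2 (1% against 1.51%). It was 0 with only the 6 arrays compared (0% against 0.0541%) or all probe sets tested (0% against 0.217%). Leaving out 1 array gave 0 to 2 (0% to 1% against 0.115% to 1.89%). Between induced RhoH and GFP, the 1 higher member became 2 with the block (1% against 2.14%) and 3 with array weights (1.5% against 3.44%). It became 5 after quantile normalization (2.5% against 2.97%), 2 with centring (1% against 1.96%) and 2 without the dimmest genes (1% against 2.67%). Without both RhoH replicate 1 arrays it was 5 (2.5% against 3.46%). It was 0 with the 6 arrays (0% against 1.2%) or all probe sets (0% against 0.961%). Without 1 array it was 0 to 2 (0% to 1% against 0.616% to 2.16%). The 2 lower members became 4 with array weights (2% against 4.51%) and 4 without both replicate 1 arrays (2% against 3.23%). Without 1 array they became 0 to 5 (0% to 2.5% against 1.19% to 3.67%). Between uninduced RhoH and GFP, the 7 higher members became 13 with the block (6.5% against 6.99%) and 36 with array weights (18% against 16%). They became 20 after quantile normalization (10% against 9.08%) and 14 with the 6 arrays (7% against 8.65%). With all probe sets they were 3 (1.5% against 4.15%), and without the dimmest genes 11 (5.5% against 8.54%). Without both replicate 1 arrays they were 22 (11% against 8.78%), and without 1 array 3 to 14 (1.5% to 7% against 3.41% to 7.71%). As reported, 3.5% of members were higher, against 6.01% of all named genes and 11.6% of the 5587 other named genes as bright. The share of all named genes called changed with the setting too, and that of genes as bright was not computed under the alternatives. The 17 lower members became 30 with array weights (15% against 13.3%) and 10 with all probe sets (5% against 7.23%). Without 1 array they became 8 to 20 (4% to 10% against 6.24% to 10.4%). The causes were not tested, apart from the larger or smaller number of tests and arrays by construction. Same-numbered arrays paired only in part. Between the RhoH groups their deviations correlated at 0.543, 0.368 and 0.0654 for replicates 1, 2 and 3. Differently numbered RhoH pairs with a replicate 1 array were at -0.496 to -0.137, and induced replicate 2 with uninduced replicate 3 at 0.395. The 2 RhoH replicate 1 arrays thus shared a deviation that the main fit did not model. With GFP, same-numbered arrays correlated at -0.0258 to 0.154. The block is given as counts and shares only. Over 22 named results and 19 alternatives, 345 of 418 values kept their call, 73 lost it and 0 turned round. With all 3 comparisons in the order above, the members' median shift was -0.011, -0.0027 and 0.017 after quantile normalization and -0.0066, -0.064 and -0.050 with centring, against 0.015, -0.045 and -0.052 as reported, so the sign changed in both for induced minus uninduced RhoH and in the first for uninduced RhoH minus GFP, while no called member changed sign.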
